A study of Mus musculus with 12 samples.

Results

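A set of 10 genes that mark the lining of blood vessels, or carry the signals that vessels receive, were followed through the livers of 4 mouse genotypes. They are Kdr, Flt1, Flt4, Tek, Tie1, Pecam1, Cdh5, Stab1, Stab2 and Lyve1, and each was taken as the row of the count tables that bears its symbol, so that 10 of 22609 genes are described. Liver RNA came from 12 untreated adult mice, 3 of each genotype, obtained by crossing heterozygous Alb/AEG-1 with heterozygous Alb/c-Myc animals. AEG1_MYC mice carried both transgenes, AEG1 mice carried Alb/AEG-1 alone, MYC mice carried Alb/c-Myc alone, and wild-type (WT) mice carried neither. The albumin promoter drives expression in hepatocytes, so these models place AEG-1 and c-Myc in the cells that the sinusoids surround and not in the endothelium itself. The series title frames the crosses around cooperation of AEG-1 and c-Myc in liver cancer, so each genotype was compared with every other and the pair of transgenes was tested for an interaction. The labels give no sex, litter or batch.

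VEGF ligands, secreted by hepatocytes among other cells, bind tyrosine kinase receptors on endothelial cells. Kdr (VEGFR2) carries most of the growth and survival signal, Flt1 (VEGFR1) binds VEGF-A tightly and limits what reaches Kdr, and Flt4 (VEGFR3) responds to VEGF-C and VEGF-D. Tek (Tie2) is the receptor of the angiopoietins, and Tie1 is its partner without a classical ligand of its own. Pecam1 and Cdh5 (VE-cadherin) hold endothelial cells together. Stab1, Stab2 and Lyve1 are scavenger or hyaluronan receptors, and in the liver they mark the fenestrated sinusoidal endothelium. However, macrophages can also express Stab1 and Lyve1, and lymphatic vessels express Lyve1 and Flt4.

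The promoters of 4 members are shown because Kdr, Flt1 and Tek were the members that lay below both single transgenics in AEG1_MYC livers without overlap, and because Tie1 is the receptor partner of Tek and had a different profile. Each sequence is 300 bases from RefSeq, GRCm38.p6, written 5′ to 3′ on the gene's strand, from 250 bases before to 50 after the annotated start. Capitals mark GGAA on either strand (read as TTCC on the other), the core that ETS transcription factors of endothelial cells bind. Promoters of 7 of the 10 members were found in the table.
Kdr, chr5:75978406-75978705, minus strand: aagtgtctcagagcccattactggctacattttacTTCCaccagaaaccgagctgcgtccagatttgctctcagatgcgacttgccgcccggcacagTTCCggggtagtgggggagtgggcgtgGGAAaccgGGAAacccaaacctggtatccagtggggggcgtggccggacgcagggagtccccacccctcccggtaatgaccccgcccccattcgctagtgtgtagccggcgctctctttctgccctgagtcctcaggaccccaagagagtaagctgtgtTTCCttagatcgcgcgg
Flt1, chr5:147725962-147726261, minus strand: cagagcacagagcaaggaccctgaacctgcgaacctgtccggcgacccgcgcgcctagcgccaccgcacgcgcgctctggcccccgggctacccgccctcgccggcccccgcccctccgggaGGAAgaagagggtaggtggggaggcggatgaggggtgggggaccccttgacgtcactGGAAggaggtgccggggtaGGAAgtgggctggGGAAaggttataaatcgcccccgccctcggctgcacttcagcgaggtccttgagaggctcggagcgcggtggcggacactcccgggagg
Tek, chr4:94739039-94739338, plus strand: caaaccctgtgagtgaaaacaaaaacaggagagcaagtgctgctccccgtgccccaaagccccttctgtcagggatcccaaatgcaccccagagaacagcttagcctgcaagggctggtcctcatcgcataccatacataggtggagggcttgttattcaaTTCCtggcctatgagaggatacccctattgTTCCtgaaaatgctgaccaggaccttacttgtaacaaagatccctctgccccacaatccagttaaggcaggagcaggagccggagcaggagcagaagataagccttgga
Tie1, chr4:118489800-118490099, minus strand: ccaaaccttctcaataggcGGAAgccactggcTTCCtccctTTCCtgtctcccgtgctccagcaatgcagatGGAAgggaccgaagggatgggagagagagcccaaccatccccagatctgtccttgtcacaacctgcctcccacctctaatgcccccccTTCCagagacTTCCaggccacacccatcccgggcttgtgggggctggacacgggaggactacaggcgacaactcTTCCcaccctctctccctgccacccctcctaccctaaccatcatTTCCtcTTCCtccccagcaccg
The core occurred 5 times in the Kdr promoter, 4 times in that of Flt1, 2 times in that of Tek and 9 times in that of Tie1. Of the 32851 mouse promoters searched, 28.6% held at least as many cores as Kdr, 46.3% at least as many as Flt1, 84.6% at least as many as Tek and 1.59% at least as many as Tie1, and at least 1 core was in 96.0% of them, so that its presence alone says little. The longer ETS sequence CCGGAA was in the Kdr window and in 14.9% of all promoters. Of the 7 member promoters, the Tek window alone held the GATA sequence AGATAA, found in 11.2% of all promoters, and the SOX core ACAAT, found in 31.0%. A TATA box, TATAAA, stood in the Flt1 window and in 13.6% of all promoters. The Myc and Max E-box CACGTG was in none of the 7 and in 7.15% of all promoters. Each motif was searched on both strands, and CCGGAA contains the ETS core.

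The libraries held between 21931197 and 40552316 reads in genes. All 10 members passed the filter on low counts, with 104 (Lyve1) to 4430 reads (Stab2) for a member in a library. Myc lay between 58.4 and 165 CPM (read counts brought to a common library size with edgeR's TMM scaling) in AEG1_MYC livers and between 23.4 and 53.8 CPM in MYC livers. It lay between 3.54 and 4.59 CPM in AEG1 livers and between 2.26 and 4.73 CPM in WT livers. All 6 Alb/c-Myc carriers thus exceeded the other 6 mice. Mtdh, the mouse gene of AEG-1, averaged 97.6 ± 12.9 CPM in AEG1_MYC, 97.4 ± 4.04 in AEG1, 97.2 ± 1.93 in MYC and 100.3 ± 1.11 CPM in WT livers (SD, n = 3 each). The labels do not name the species of the AEG-1 transgene, so these values do not check the AEG-1 label. One library stood apart: AEG1_MYC replicate 2 was the highest of all 12 libraries for 23.2% of the 13684 genes tested and the lowest for 24.5%, and AEG1_MYC replicate 1 was the highest for 12.9% and the lowest for 11.1%. Values with replicate 2 or both of these mice left out are given beside the members they touch.

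All 10 members were expressed in every liver. In WT livers, and per kilobase of exon so that genes can be ranked, Cdh5 (7.83 ± 2.11 CPM per kb) and Stab2 (7.58 ± 1.36) stood highest and did not differ beyond their spread (SD, n = 3 each). Kdr (5.84 ± 0.54), Stab1 (5.51 ± 0.75) and Tie1 (4.03 ± 0.31) followed, then Flt4 (3.53 ± 0.43), Pecam1 (3.24 ± 0.56) and Tek (3.01 ± 0.46), with neighbours mostly within each other's spread. Lyve1 (1.74 ± 0.32) and Flt1 (0.90 ± 0.07 CPM per kb) stood lowest. Exon lengths came from GENCODE M21 on GRCm38 and may differ from the models the authors counted on. In RNA from whole liver, fewer endothelial cells and less RNA per cell cannot be told apart.

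**Figure D1:**
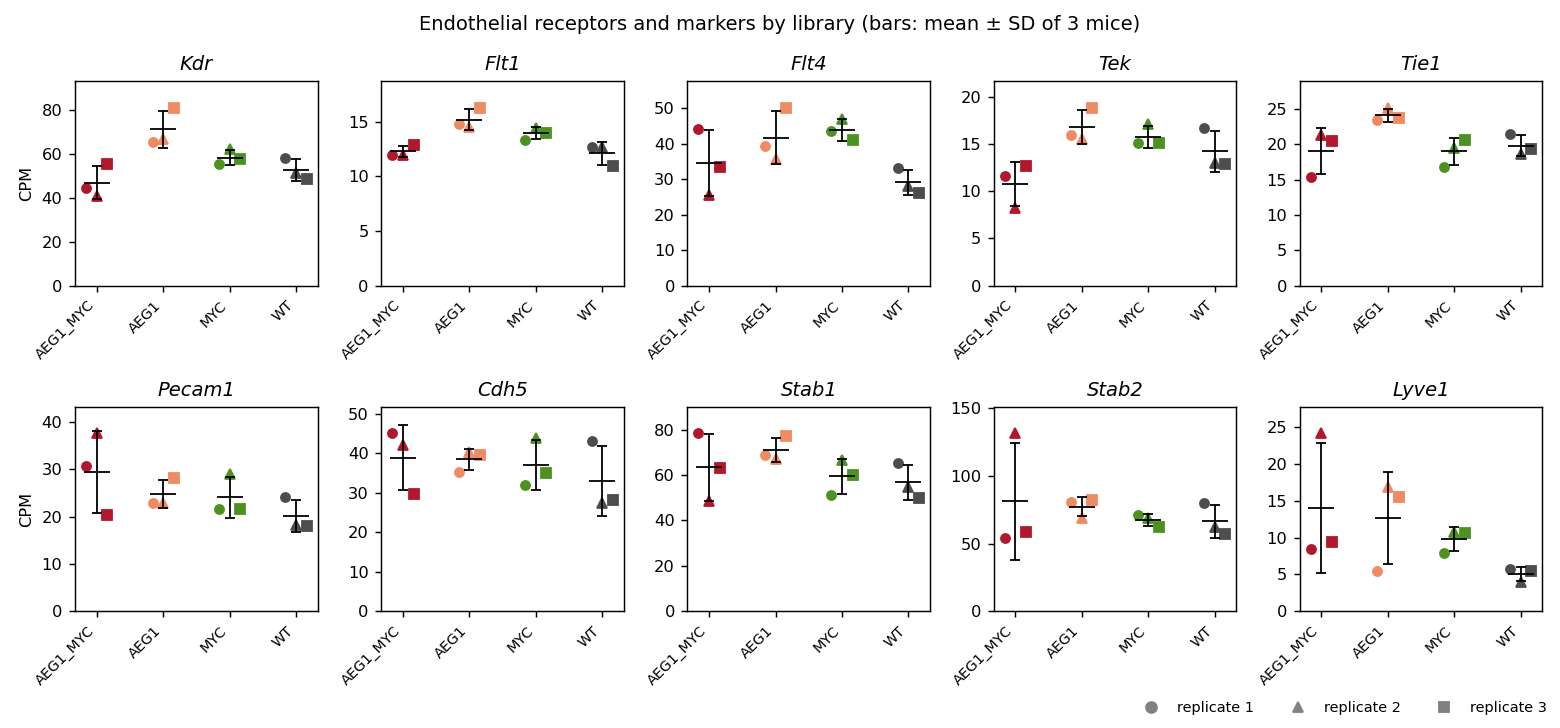
Level of each of the 10 genes in CPM (linear axes from 0) in the AEG1_MYC, AEG1, MYC and WT livers, 1 point per mouse with the mean ± SD of 3 mice. AEG1 livers carry the highest mean for 5 genes, and AEG1_MYC replicate 2 (triangle) stands far above the other mice for Stab2, at 131 CPM, and for Lyve1, at 24.1 CPM.

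Across the genotypes, the receptors and markers tended to be somewhat higher with either transgene alone than in WT, and Kdr, Flt1, Tek and Tie1 were lower with both transgenes than with AEG-1 alone, but none of these differences passed edgeR's quasi-likelihood test after Benjamini-Hochberg adjustment over all genes. No member was called at an adjusted p under 0.05 in any of the 6 pairwise comparisons, the interaction or the joint test of the 4 genotypes. The transcriptome as a whole gave few calls: 0.263% of genes in AEG1_MYC versus WT, 0% in AEG1 versus WT, 0% in MYC versus WT, 0.322% in AEG1_MYC versus AEG1, 0.205% in AEG1_MYC versus MYC, 0% in AEG1 versus MYC, 0.0219% in the interaction and 0.519% in the joint test. DESeq2 called far more genes, and its member calls are read against those shares. It called Lyve1 in AEG1_MYC versus WT (4.76% of all genes), Kdr and Tek in AEG1_MYC versus AEG1 (5.12%), and Kdr in the interaction (1.11%) and in the joint test (5.39%). It called no member in AEG1 versus WT (0.11%), MYC versus WT (0.205%), AEG1_MYC versus MYC (3.26%) or AEG1 versus MYC (0.146%). With limma voom and quality weights no member was called in any comparison.

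The VEGF receptors were highest in AEG1 livers for Kdr and Flt1 and highest in MYC livers for Flt4. Kdr, the main VEGF signalling receptor, was measured at 44.3, 40.9 and 55.3 CPM in AEG1_MYC livers, at 65.5, 67.0 and 81.1 CPM in AEG1 livers, at 55.4, 62.1 and 57.5 CPM in MYC livers and at 58.1, 51.5 and 48.5 CPM in WT livers. Every AEG1 liver lay above every other liver, and every AEG1_MYC liver lay below every MYC liver, although AEG1_MYC replicate 3, at 55.3 CPM, was close to the lowest MYC mouse, at 55.4 CPM. The log2 fold change of Kdr was -0.60 ± 0.13 (SE) in AEG1_MYC versus AEG1, the lowest adjusted p of any member and comparison (edgeR, 0.0810), and DESeq2 gave an adjusted p of 0.00329 for it. Without AEG1_MYC replicate 3 the edgeR value was -0.73 with an adjusted p of 0.0169, in a fit that called 4.54% of all genes in that comparison and 2.1% in the joint test, Kdr among them. Without replicate 2 it was -0.52 (edgeR adjusted p = 0.209), and with replicates 1 and 2 both left out it was -0.36. For the same gene AEG1 versus WT gave 0.43 ± 0.13 (edgeR adjusted p = 0.9997), AEG1_MYC versus MYC gave -0.32 ± 0.13 (edgeR adjusted p = 0.294) and AEG1 versus MYC gave 0.29 ± 0.13. The AEG1_MYC versus MYC value was -0.23 without AEG1_MYC replicate 2 and -0.07 with replicates 1 and 2 both left out.

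Flt1, the decoy-like receptor, varied over a narrower range. Its CPM were 11.99, 12 and 12.8 in AEG1_MYC livers, 14.8, 14.5 and 16.3 in AEG1 livers, 13.4, 14.4 and 14.02 in MYC livers and 12.7, 12.7 and 10.9 in WT livers. Both single transgenics lay above WT without overlap, and the double transgenic lay below both single transgenics without overlap, at levels that overlapped WT. The log2 fold changes were 0.33 ± 0.10 in AEG1 versus WT, 0.20 ± 0.10 in MYC versus WT, -0.31 ± 0.10 in AEG1_MYC versus AEG1 and -0.18 ± 0.10 in AEG1_MYC versus MYC, with edgeR adjusted p values of 0.9997, 0.9994, 0.179 and 0.408. AEG1 also lay above MYC, by 0.13 ± 0.10, without overlap. With AEG1_MYC replicate 2 left out, Flt1 stood at -0.29 against AEG1 and -0.17 against MYC, and with replicates 1 and 2 both left out at -0.24 and -0.11.

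Flt4, the receptor of VEGF-C and VEGF-D, was measured at 44.1, 25.7 and 33.4 CPM in AEG1_MYC, 39.3, 35.6 and 50.1 CPM in AEG1, 43.5, 47.0 and 41.0 CPM in MYC and 33.0, 28.1 and 26.1 CPM in WT livers. The AEG1 and MYC livers all exceeded the WT livers, whereas the AEG1_MYC mice spread from below the lowest WT mouse to the level of the MYC mice. Its log2 fold change was 0.59 ± 0.19 in MYC versus WT and 0.52 ± 0.19 in AEG1 versus WT (edgeR adjusted p = 0.9994 and 0.9997). Flt4 was thus the member with the smallest unadjusted p in MYC versus WT, at 0.0105. Relative to Kdr in the same liver, Flt4 had a log2 ratio of CPM of -0.41 ± 0.07 in MYC livers, -0.78 ± 0.12 in AEG1 livers and -0.86 ± 0.04 in WT livers, and of -0.47 ± 0.40 in AEG1_MYC livers, where replicate 1 reached -0.005 (SD, n = 3 each).

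The 7 VEGF ligands and co-receptors on the list were not called in any comparison. Of these, 6 were tested with edgeR, 0 to 1 of them had an unadjusted p under 0.05, and their medians lay between -0.09 and 0.11 on the log2 scale. Vegfa, the main hepatocyte ligand of Kdr and Flt1, averaged 240.8 ± 30.5 CPM in AEG1_MYC, 260.9 ± 19.8 in AEG1, 235.6 ± 9.80 in MYC and 250.3 ± 1.29 CPM in WT livers. Vegfc, a ligand of Flt4, averaged 3.92 ± 0.15 CPM in AEG1_MYC, 4.07 ± 0.54 in AEG1, 4.08 ± 0.57 in MYC and 4.17 ± 0.05 CPM in WT livers. The co-receptor Nrp1 averaged 99.6 ± 18.5 CPM in AEG1_MYC, 157.6 ± 34.1 in AEG1, 116.3 ± 17.4 in MYC and 143.9 ± 45.04 CPM in WT livers (SD, n = 3 each throughout).

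Of the angiopoietin receptors, Tek was lowest in AEG1_MYC livers and Tie1 was highest in AEG1 livers. Tek had 11.6, 8.18 and 12.6 CPM in AEG1_MYC, 15.98, 15.5 and 18.8 CPM in AEG1, 15.1, 17.1 and 15.0 CPM in MYC and 16.7, 13.0 and 12.9 CPM in WT livers. All 3 AEG1_MYC livers lay below all 9 others, and replicate 2 lay farthest below. The log2 fold change was -0.40 ± 0.17 against WT, -0.64 ± 0.17 against AEG1 and -0.54 ± 0.17 against MYC, with edgeR adjusted p values of 0.269, 0.123 and 0.216. DESeq2 called the difference from AEG1, with an adjusted p of 0.0225, and so did edgeR without AEG1_MYC replicate 3 (-0.76, adjusted p = 0.0494), where 4.54% of all genes were called. Without AEG1_MYC replicate 2 the fold changes shrank to -0.23 against WT, -0.47 against AEG1 and -0.38 against MYC, and with replicates 1 and 2 both left out they were -0.17, -0.41 and -0.31. In AEG1 versus WT the value for Tek was 0.24 ± 0.17.

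Tie1 had 15.4, 21.3 and 20.5 CPM in AEG1_MYC, 23.4, 25.2 and 23.8 CPM in AEG1, 16.9, 19.5 and 20.7 CPM in MYC and 21.5, 18.6 and 19.3 CPM in WT livers. The 3 AEG1 livers lay above all 9 others, which overlapped one another. The log2 fold changes were -0.34 ± 0.13 in AEG1_MYC versus AEG1, 0.28 ± 0.13 in AEG1 versus WT and 0.34 ± 0.13 in AEG1 versus MYC, with edgeR adjusted p values of 0.231, 0.9997 and 0.9999. The AEG1_MYC versus AEG1 value was -0.19 without AEG1_MYC replicate 1, -0.43 without replicate 2 and -0.23 with both left out. The low Tek of AEG1_MYC replicate 2 had no counterpart in Tie1, and the log2 ratio of Tek over Tie1 was -1.38 in that mouse, the lowest of the AEG1_MYC livers, against -0.70 to -0.34 in AEG1, -0.46 to -0.16 in MYC and -0.59 to -0.36 in WT livers. Of the 5 angiopoietins and Tie partners listed, 4 were tested and edgeR called 0, with 2 at an unadjusted p under 0.05 in AEG1_MYC versus AEG1. Ptprb, the phosphatase that dampens Tek, averaged 73.3 ± 15.4 CPM in AEG1_MYC, 123.0 ± 1.52 in AEG1, 101.8 ± 10.8 in MYC and 96.1 ± 8.51 CPM in WT livers (SD, n = 3 each). DESeq2 called Ptprb in AEG1_MYC versus AEG1 and edgeR did not, with an adjusted p of 0.0724. Angpt2, an angiopoietin released by activated endothelium, stood at 1.255, 14.3 and 0.963 CPM in AEG1_MYC replicates 1, 2 and 3. It stood at 1.31 to 1.86 CPM in AEG1, 1.37 to 1.66 CPM in MYC and 0.40 to 0.84 CPM in WT livers. Every transgenic liver thus lay above every WT liver, at low levels outside AEG1_MYC replicate 2. Of all genes, 9.81%, 5.16% and 5.47% lay above WT without overlap in AEG1_MYC, AEG1 and MYC livers.

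The means of both junction genes were highest in AEG1_MYC livers, followed by AEG1, MYC and WT livers, but the mice of all genotypes overlapped. In that order the means were 29.5, 24.7, 24.1 and 20.2 CPM for Pecam1. They were 38.9, 38.4, 36.95 and 32.9 CPM for Cdh5. Pecam1 had 30.7, 37.6 and 20.3 CPM in AEG1_MYC, 23.0, 23.0 and 28.1 CPM in AEG1, 21.6, 29.1 and 21.7 CPM in MYC and 24.2, 18.3 and 18.0 CPM in WT livers. Of the AEG1_MYC mice, replicates 1 and 2 lay above all 9 mice of the other genotypes and replicate 3 lay among them, so the groups overlapped in every comparison. Its log2 fold change in AEG1_MYC versus WT was 0.55 ± 0.22 (edgeR adjusted p = 0.239). It was 0.77 with an adjusted p of 0.0493 without AEG1_MYC replicate 3, where edgeR called 4.95% of all genes, 0.34 with an adjusted p of 0.543 without replicate 2, and 0.01 with replicates 1 and 2 both left out. Cdh5, the adhesion molecule of endothelial junctions, had 44.96, 42.1 and 29.6 CPM in AEG1_MYC, 35.3, 40.4 and 39.5 CPM in AEG1, 31.8, 43.9 and 35.1 CPM in MYC and 43.1, 27.4 and 28.1 CPM in WT livers. All of its groups overlapped, and the AEG1 versus WT values were 0.22 ± 0.21 for Cdh5 and 0.29 ± 0.22 for Pecam1. Of 12 partners of the junctions, such as the catenins and Esam, edgeR called 0 in any comparison, and their medians lay between -0.10 and 0.07. DESeq2 called 1 of them, Esam, a junction adhesion molecule, in AEG1_MYC versus WT, AEG1 and MYC and in the joint test. Esam, chosen for mention after its values were seen, stood at 24.65, 62.3 and 14.6 CPM in AEG1_MYC replicates 1, 2 and 3. It stood at 9.57 to 13.1 CPM in the 9 livers of the other genotypes, without overlap. Of all genes, 9.81%, 9.6% and 9.64% lay higher without overlap in AEG1_MYC versus WT, AEG1 and MYC.

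Among the scavenger and hyaluronan receptors, the mean of Lyve1 was lowest in WT livers. Lyve1 had 8.46, 24.1 and 9.44 CPM in AEG1_MYC, 5.52, 16.9 and 15.6 CPM in AEG1, 7.88, 10.8 and 10.6 CPM in MYC and 5.70, 3.98 and 5.51 CPM in WT livers. Every AEG1_MYC and every MYC liver exceeded every WT liver, and AEG1 replicate 1 alone among the transgenic mice was at the WT level. The log2 fold changes against WT were 1.47 ± 0.47 in AEG1_MYC, 1.32 ± 0.47 in AEG1 and 0.94 ± 0.46 in MYC livers, with edgeR adjusted p values of 0.176, 0.9997 and 0.9994. DESeq2 called the first, with an adjusted p of 0.0378, and without AEG1_MYC replicate 2 the edgeR value was 0.82 (adjusted p = 0.451), and 0.90 with replicates 1 and 2 both left out. These were the widest differences of any member, and Lyve1 was also the member with the fewest reads.

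Stab2, the main hyaluronan scavenger receptor of liver sinusoids, had 54.4, 131 and 58.3 CPM in AEG1_MYC, 80.4, 69.1 and 82.2 CPM in AEG1, 70.8, 68.9 and 62.6 CPM in MYC and 79.8, 62.1 and 57.2 CPM in WT livers. AEG1_MYC replicate 2 was the highest of all 12 and AEG1_MYC replicate 1 the lowest, so the group held both ends of the range. Its log2 fold change in AEG1_MYC versus WT was 0.29 ± 0.29 with all mice and -0.24 without replicate 2. Stab1, a related receptor, had 78.3, 48.5 and 63.3 CPM in AEG1_MYC, 69.0, 67.1 and 77.2 CPM in AEG1, 51.4, 66.7 and 60.2 CPM in MYC and 65.2, 54.9 and 50.1 CPM in WT livers. Every AEG1 liver exceeded every MYC and every WT liver for Stab1, by 0.26 ± 0.17 and 0.33 ± 0.17 on the log2 scale, and AEG1_MYC replicate 2 was the lowest of all 12. Stab2 in AEG1 versus WT stood at 0.22 ± 0.29. The 7 hyaluronan synthases, hyaluronidases and receptors listed included 5 that were tested, of which edgeR called 0 in any comparison and DESeq2 called Hmmr and Hyal2 in AEG1_MYC versus AEG1, and Has2 had 0 reads in all 12 libraries.

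**Figure D2:**
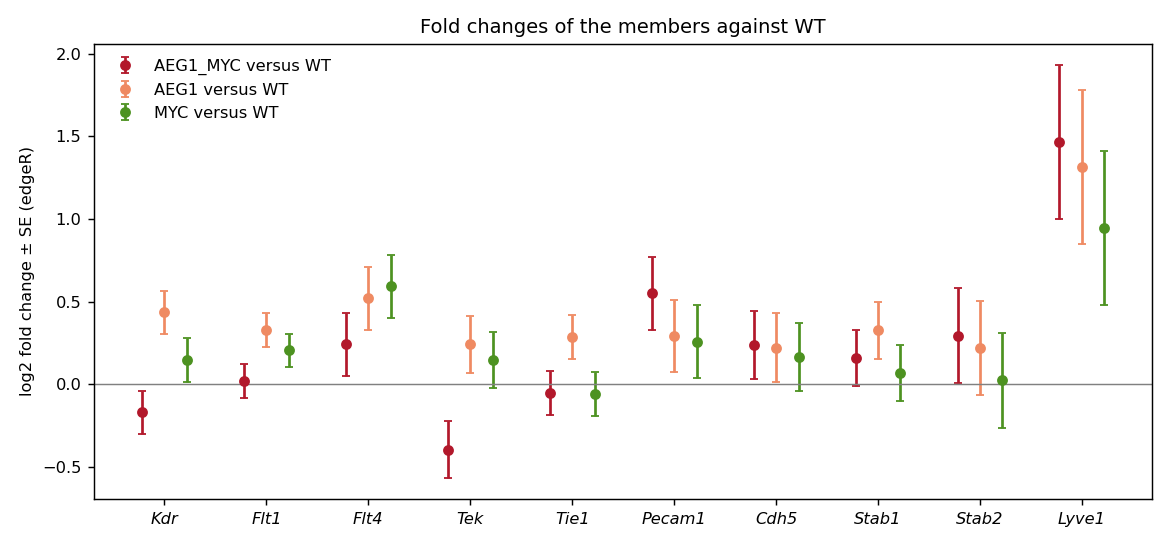
The log2 fold change (vertical axis, edgeR, bars are ± 1 SE, 3 mice per group) of each gene in AEG1_MYC, AEG1 and MYC livers, each against the same 3 WT livers. All 10 AEG1 values lie above 0, at 0.22 to 1.32, and Tek in AEG1_MYC is the lowest point, at -0.40.

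Either transgene alone went with mostly positive values of the members against WT, none of which passed the adjusted test. In AEG1 versus WT all 10 were positive, where 49.7% of all genes were, with a median of 0.31 against 0.00 for all genes. This was not particular to the members. Of the stellate cell markers listed below, 9 of 10 were positive in the same comparison (median 0.39). So were 7 of 7 B and T cell markers tested (median 0.64), which summed to only 2.84 to 10.5 CPM in AEG1 livers. Positive values were fewer among Kupffer cell and macrophage markers (4 of 8) and bile duct markers (2 of 6). The 5 members Kdr, Flt1, Flt4, Tie1 and Stab1 lay above WT without overlap (5.16% of all genes did so), and 4 had an unadjusted p under 0.05 (3.92% of all genes). In MYC versus WT, 9 were positive (49.4% of all genes), the median was 0.16, the 3 members Flt1, Flt4 and Lyve1 did not overlap (5.47%) and 1 had an unadjusted p under 0.05 (3.47%). In AEG1 versus MYC, 9 were positive (51% of all genes), the median was 0.16, and Kdr, Flt1, Tie1 and Stab1 did not overlap (6.39%), with 1 at an unadjusted p under 0.05 (3.68%). The highest of the 4 genotype means was that of AEG1 for 5 of the 10, Kdr, Flt1, Tek, Tie1 and Stab1, and for 22.2% of all genes. The comparisons with WT share the same 3 WT mice and those with AEG1 the same 3 AEG1 mice, and the members share their cells of origin, so these counts are not separate pieces of evidence.

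The double transgenic livers were more mixed. In AEG1_MYC versus WT, 7 members were positive (51.6% of all genes) and the median was 0.20. Lyve1 lay above WT without overlap (9.81% of all genes) and Tek below it (9.65%), and 3 members had an unadjusted p under 0.05 (17.2%), which with 10 genes is near the background. In AEG1_MYC versus AEG1, 6 were negative (48.9%), the median was -0.22, Kdr, Flt1, Tek and Tie1 lay lower without overlap (8.24%) and the same 4 had an unadjusted p under 0.05 (17.4%). In AEG1_MYC versus MYC, 6 were positive (51.3%), the median was 0.04, Kdr, Flt1 and Tek lay lower without overlap (8.85%), and 2 had an unadjusted p under 0.05 (15.2%).

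**Figure D3:**
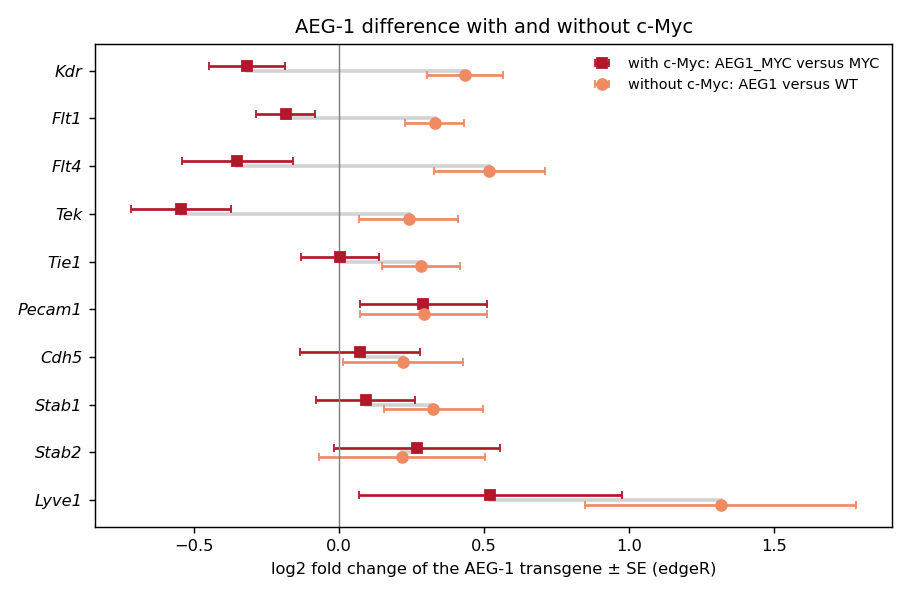
The log2 fold change (horizontal axis, edgeR, bars are ± 1 SE, 3 mice per group) for the AEG-1 transgene with c-Myc (AEG1_MYC versus MYC, squares) and without it (AEG1 versus WT, circles), joined by a grey line for each gene. For Kdr, Flt1, Flt4 and Tek the squares lie below 0 and the circles above it, with interaction values of -0.75, -0.51, -0.87 and -0.79.

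The interaction compares the AEG-1 difference on the c-Myc background with that on the wild-type background. It was negative for 9 of 10 members (48.9% of all genes), with a median of -0.40 against about 0 for all genes, and 4 members had an unadjusted p under 0.05 (9.25% of all genes). These were Kdr at -0.75 ± 0.19, Flt1 at -0.51 ± 0.14, Flt4 at -0.87 ± 0.27 and Tek at -0.79 ± 0.24, with edgeR adjusted p values of 0.356, 0.360, 0.424 and 0.419. Without AEG1_MYC replicate 2 the 4 values were -0.66, -0.50, -0.70 and -0.62, and with replicates 1 and 2 both left out -0.51, -0.44, -0.90 and -0.55. DESeq2 called Kdr alone among the members, with an adjusted p of 0.0394. Negative interaction values were not particular to the members. They were found for 12 of 14 other sinusoidal markers (median -0.60) and 10 of 10 stellate cell markers (median -0.94). By contrast, 6 of 13 other vascular markers tested and 2 of 11 endothelial transcription factors were negative. Kdr and Flt1 lay above WT in AEG1 livers and below MYC in AEG1_MYC livers, both without overlap, a pattern that 0.278% of all genes shared. For Kdr the nearest AEG1_MYC and MYC mice stood at 55.31 and 55.37 CPM. In the joint test of any difference among the genotypes, 5 members had an unadjusted p under 0.05 (12.7% of all genes), and Kdr had the lowest adjusted p, 0.191. DESeq2 called Kdr there as well, at an adjusted p of 0.0123.

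AEG1_MYC replicate 2 stood at one end of the 12 libraries for 7 of the 10 members. It was the highest for 3, Pecam1, Stab2 and Lyve1 (23.2% of all genes), and the lowest for 4, Kdr, Flt4, Tek and Stab1 (24.5%). Of the 14 other sinusoidal markers, it was the lowest library for 12 and the highest for 0. Clec4g, a lectin of sinusoidal endothelium, stood at 27.0 CPM there and at 59.4 to 82.2 CPM in the other 11 livers. F8, coagulation factor VIII, stood at 8.95 CPM there and at 17.8 to 30.3 CPM in the others. Of the 13 other vascular markers tested, it was the highest for 7 and the lowest for 1. Esm1, a secreted product of VEGF-stimulated tip cells, stood at 52.8 CPM there and at no more than 6.18 CPM in the others. Cd34, a marker of continuous capillaries, stood at 19.6 CPM there and at 1.34 to 4.52 CPM in the others, and Emcn, a sialomucin of veins and capillaries, at 8.98 CPM and 2.05 to 3.54 CPM. These list genes were chosen for mention after their values were seen. AEG1_MYC replicate 1 was the highest library for 2 members and the lowest for 2, and replicate 3 was neither for any member.

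**Figure D4:**
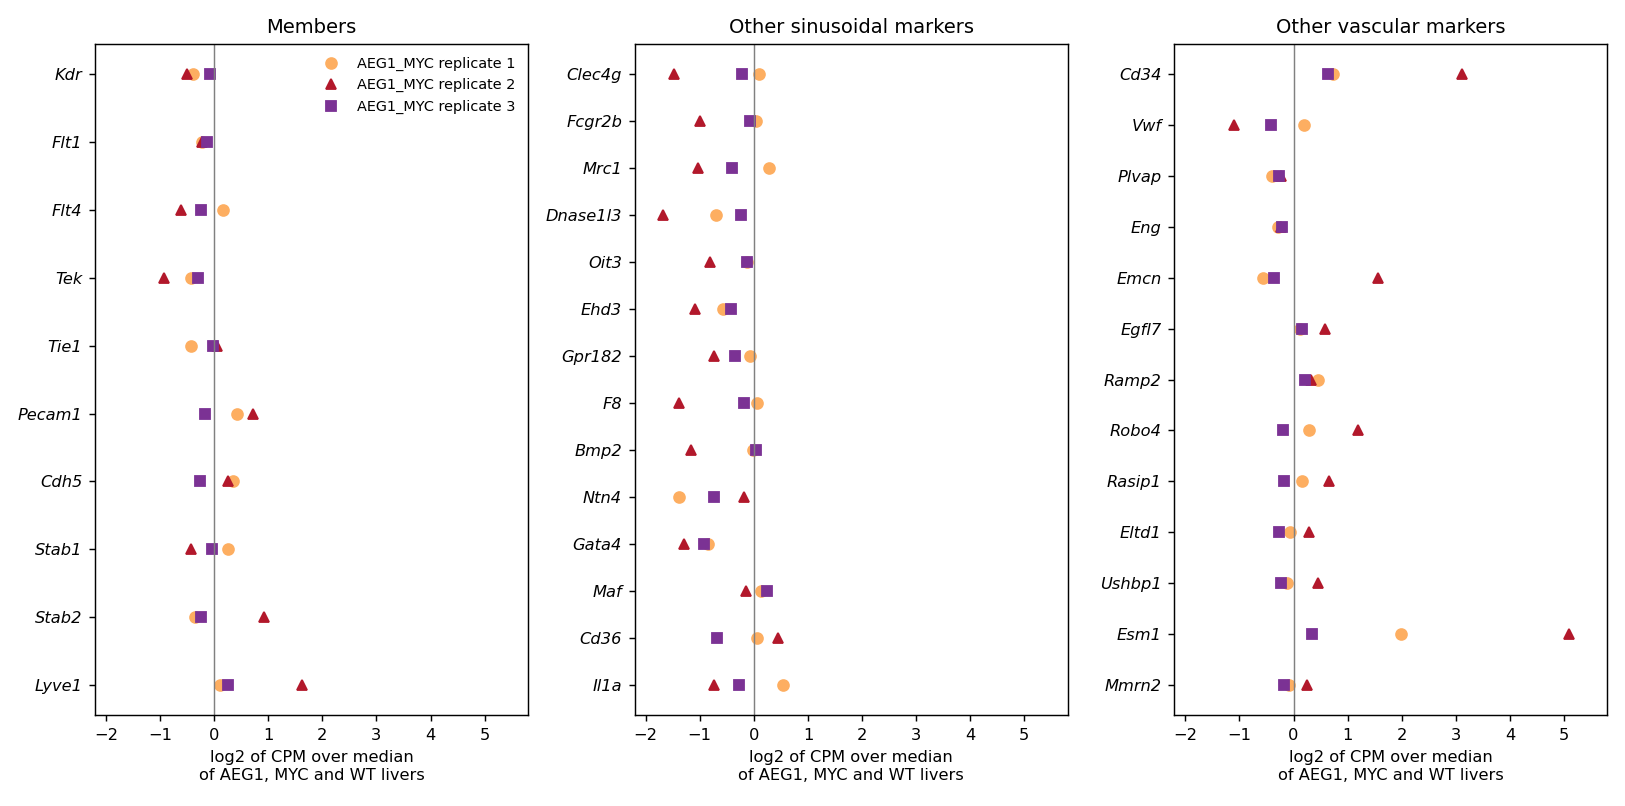
Log2 of the CPM in each AEG1_MYC liver over the median of the 9 AEG1, MYC and WT livers (horizontal axis), for the 10 members, 14 other sinusoidal markers and 13 other vascular markers. Replicate 2 (triangles) is left of the other mice for most sinusoidal markers, such as Clec4g at -1.47, and far right for Esm1 at 5.09 and Cd34 at 3.11.

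Ratios between members of the same liver take out any change that all endothelial genes share. The log2 ratio of Kdr over Pecam1 was 0.70 ± 0.68 in AEG1_MYC, 1.53 ± 0.02 in AEG1, 1.29 ± 0.17 in MYC and 1.40 ± 0.12 in WT livers. The ratio of Kdr over Cdh5 was 0.28 ± 0.54 in AEG1_MYC, 0.89 ± 0.15 in AEG1, 0.67 ± 0.15 in MYC and 0.71 ± 0.25 in WT livers. The AEG1_MYC mice spread widely: Kdr over Pecam1 was 0.53, 0.12 and 1.45 and Kdr over Cdh5 -0.02, -0.04 and 0.90 in replicates 1, 2 and 3, so that replicate 3 was at the level of the other genotypes. The log2 ratio of Lyve1 over Pecam1 was -1.20 ± 0.62 in AEG1_MYC, -1.12 ± 0.84 in AEG1, -1.31 ± 0.24 in MYC and -1.997 ± 0.26 in WT livers, so Lyve1 stayed higher relative to Pecam1 in the MYC mice than in any WT mouse (SD, n = 3 each). No test was made on these ratios.

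Across the 12 libraries the members were positively correlated in 37 of 45 pairs, as a description without a test, with a median Pearson r of 0.33. The closest pair was Kdr with Flt1 (r = 0.893) and the least alike Tek with Pecam1 (r = -0.307). With the genotype means taken out, over all 12 libraries, 32 of 45 pairs were positive with a median r of 0.20, and the lowest was Flt4 with Tie1 (r = -0.539). Over the 9 libraries of AEG1, MYC and WT mice alone, taken the same way, 44 of 45 pairs were positive with a median r of 0.66. All pairs share library size scaling and the amount of endothelium in each piece of liver. The genes outside the set whose log2 CPM followed the mean of the members' z-scores most closely over 12 libraries were Arhgap31 (r = 0.946), Ccnd2 (0.876), Rgl1 (0.838), Eltd1 (0.829) and Fyn (0.821). Over the 10 libraries without AEG1_MYC replicates 1 and 2 these values were 0.962, 0.890, 0.890, 0.893 and 0.935.

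Lists of other endothelial and liver genes give the setting. Over all 15 lists, 119 of 130 genes found were tested, and edgeR called 0 of them in any comparison, with 25 at an unadjusted p under 0.05 in AEG1_MYC versus WT, 11 in AEG1 versus WT, 3 in MYC versus WT, 32 in AEG1_MYC versus AEG1, 18 in AEG1_MYC versus MYC, 6 in AEG1 versus MYC and 19 in the interaction. The shares of all genes at that level were 17.2%, 3.92%, 3.47%, 17.4%, 15.2%, 3.68% and 9.25% in the same order. DESeq2 called 8, 1, 1, 17, 4, 0 and 3 list genes, where it called 4.76%, 0.11%, 0.205%, 5.12%, 3.26%, 0.146% and 1.11% of all genes, and limma voom with quality weights called 0. Of the 14 other sinusoidal markers, 13 were positive in AEG1 versus WT (median 0.31), and 13 were negative in AEG1_MYC versus AEG1 (median -0.50) with 7 at an unadjusted p under 0.05. Without AEG1_MYC replicate 2 that median was -0.27, with 13 negative and 6 at such a p. Their summed level was 544 to 695 CPM in AEG1_MYC, 753 to 944 CPM in AEG1, 597 to 753 CPM in MYC and 539.5 to 671 CPM in WT livers. Cd36 weighed on these sums, at 136 to 298 CPM in AEG1_MYC and 76.6 to 218 CPM in WT livers. Gene by gene, 13 of the 14 were negative in AEG1_MYC versus WT (median -0.29), with 3 at an unadjusted p under 0.05. AEG1_MYC replicate 2 was the lowest library for 12 of them. AEG1 replicate 3 was the highest library for 9 of them, and for 8.97% of all genes. That AEG1 mouse was also the highest for 4 of the 10 members and 6 of the 10 stellate cell markers. The 13 other vascular markers tested had medians of 0.21 in AEG1 versus WT and 0.07 in AEG1_MYC versus AEG1, the second being -0.22 without AEG1_MYC replicate 2. Of 11 endothelial transcription factors, 8 were positive in AEG1_MYC versus WT (median 0.34, or 0.04 without replicate 2) and 8 in AEG1 versus WT (median 0.10). The 10 zonated endothelial genes, whose level depends on the position along the sinusoid, had medians of -0.31 in AEG1_MYC versus WT (-0.19 without replicate 2) and 0.02 in AEG1 versus WT. The summed members lay at 316 to 392 CPM in AEG1_MYC, 372 to 433 CPM in AEG1, 328 to 379.5 CPM in MYC and 277 to 360.0 CPM in WT livers.

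Markers of other liver cells also differed between the groups, and their part in the members' values was not tested. All 10 stellate cell markers were negative in AEG1_MYC versus AEG1, with a median of -1.12 and 8 at an unadjusted p under 0.05 (17.4% of all genes), and without AEG1_MYC replicate 2 the median was -0.76 with 9 at such a p. Their summed level was 197 to 414 CPM in AEG1_MYC, 644 to 801 CPM in AEG1, 378 to 567 CPM in MYC and 506 to 634 CPM in WT livers. All 7 hepatocyte markers tested were negative in AEG1_MYC versus WT (median -0.71, or -0.42 without AEG1_MYC replicate 2), in AEG1 versus WT (median -0.39) and in MYC versus WT (median -0.37). Their sum was 39990 to 76030 CPM in AEG1_MYC, 81380 to 92850 CPM in AEG1, 71180 to 90170 CPM in MYC and 107700 to 119500 CPM in WT livers, without overlap between WT and the others. Most of it was Alb, at 83490 to 92840 CPM in WT livers. Alb, Apoa1 and Ahsg lay below WT in both single transgenics without overlap, and Ttr, Hnf4a, Serpina1a and Fgb overlapped. Of all genes, 5.53% lay below WT without overlap in AEG1 and 6.09% in MYC livers. Kupffer cell and macrophage markers summed to 129 to 861 CPM in AEG1_MYC, 254 to 461 CPM in AEG1, 266 to 377 CPM in MYC and 174.5 to 596 CPM in WT livers, with 8 of 8 positive in AEG1_MYC versus AEG1 (median 0.40), and AEG1_MYC replicate 1 was the highest library for 6 of the 8. Without that mouse the median was -0.93 with 1 of 8 positive, and without replicate 2 it was 0.72. Platelet and megakaryocyte markers, which bear on Pecam1, summed to 7.13 to 11.8 CPM in AEG1_MYC, 7.62 to 9.94 in AEG1, 5.93 to 8.14 in MYC and 5.85 to 10 CPM in WT livers. Of the 5 lymphatic markers, Pdpn, Mmrn1 and Foxc2 averaged at most 1.01 CPM in any genotype and Ccl21a, a gene with near-identical copies, was listed at 0 in all libraries. Prox1, also made by hepatocytes, averaged 63.8 ± 25.7 CPM in AEG1_MYC, 69.0 ± 13.8 in AEG1, 69.4 ± 13.8 in MYC and 77.0 ± 12.4 CPM in WT livers (SD, n = 3 each).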

How the data were processed

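The deposited files hold raw whole-number counts of reads per gene, 1 file for each of 12 liver libraries. CASAVA 1.8.2, the aligner TopHat2 2.0.7, the counter HTSeq and the genome build mm9 are named in the submitters' processing notes. The version of HTSeq, its gene models and its strand setting are not given in the sources used here. Overlapping and antisense genes may therefore share reads with a member. RNA came from a Qiagen miRNeasy kit and libraries from an Illumina TruSeq kit, per the labels' protocols. Alignments at several places (46.5% to 58.0% of all values in a table), reads in no feature (11.5% to 15.5% of uniquely aligned reads) and ambiguous reads (0.634% to 0.746%) stayed out of library sizes and tests.

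Genotypes came from the labels. Replicate numbers follow accession order and name a mouse only, so nothing was paired. No 2 libraries held identical counts. Nothing in the labels beyond separate mice describes the replicates.

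From the counts, genes were filtered with filterByExpr (13684 kept) and fitted in R 4.3.3 with edgeR 4.0.16 (TMM, robust quasi-likelihood test, 1 coefficient per genotype, 12 libraries, two-sided, Benjamini-Hochberg over all genes tested, called under 0.05). The interaction is the difference AEG1_MYC minus MYC less the difference AEG1 minus WT (in log2 units). CPM are the counts scaled with edgeR's TMM library sizes to a common depth. With 3 mice against 3, an exact permutation test of single values could not go below 0.10 and was not used. Alternatives were DESeq2 1.42.0, limma 3.58.1 voom with quality weights, other scalings and filters, a fit of the compared libraries alone, and leaving out libraries. The scripts were tested on simulated data. Reads carry no molecular identifiers, so PCR duplicates could not be told apart. The SE and p values of the fits take in the spread between mice of a genotype.

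The rule for named genes took all 10 members, Myc, list genes that edgeR called (none) and the 5 genes most like the members' mean z-score (log2 CPM with a prior count of 2, mean CPM of at least 1). Other list genes and Mtdh are named for their role or were chosen after their values were seen. The members and lists were chosen with earlier results of these data known. No protein sequence was used here.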

Additional observations from a re-analysis of the deposited data

Results flagged for a closer look

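The AEG-1 difference of Kdr had opposite signs on the 2 backgrounds, and the libraries did not overlap on either. All 3 AEG1 livers lay above all 3 WT livers, and all 3 AEG1_MYC livers lay below all 3 MYC livers. The second separation was very narrow, with AEG1_MYC replicate 3 at 55.31 CPM and MYC replicate 1 at 55.37 CPM. The AEG1_MYC versus MYC difference was -0.32 with all mice and -0.07 with AEG1_MYC replicates 1 and 2 both left out. The interaction itself was -0.75 ± 0.19 (SE) on the log2 scale and did not pass edgeR's quasi-likelihood test (adjusted p = 0.356). Without AEG1_MYC replicate 2 it was -0.66, and with replicates 1 and 2 both left out -0.51.

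Flt1 showed the same for both transgenes. AEG1 livers lay above WT and AEG1_MYC livers below MYC, and MYC livers lay above WT and AEG1_MYC livers below AEG1, in each case with no overlap. Its interaction of -0.51 ± 0.14 did not pass the same test (edgeR adjusted p = 0.360), and it was -0.50 without AEG1_MYC replicate 2.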

How the results depend on the processing

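DESeq2 called 1 member in AEG1_MYC versus WT (Lyve1), 2 in AEG1_MYC versus AEG1 (Kdr and Tek), 1 in the interaction and 1 in the joint test (Kdr in both), where edgeR called 0, and it made 47 calls among the list genes over the 8 tests, where edgeR made 0. Over all genes DESeq2 called 652, 700, 152 and 738 in these 4 tests, where edgeR called 36, 44, 3 and 71. The cause was not tested. The median of the members in AEG1_MYC versus WT was 0.0647 with limma voom and 0.0633 with AEG1_MYC replicates 1 and 2 both left out, against 0.20, and that in AEG1_MYC versus MYC was -0.16 with both left out, against 0.04. In that fit the lone replicate 3 was assumed to vary like the other groups. Stab2 in AEG1_MYC versus WT changed sign, to -0.0858 with limma voom, -0.18 with both mice left out and -0.24 without AEG1_MYC replicate 2, with a range of -0.24 to 0.53 over single omissions. Leaving out 1 library at a time gave 0 to 1 called members in AEG1_MYC versus WT, 0 to 2 in AEG1_MYC versus AEG1 and 0 to 1 in the joint test, all of the member calls without AEG1_MYC replicate 3, and 0 to 28 calls among the list genes. Without that mouse 687, 630 and 292 of all 13891 genes tested were called in these 3 tests. Over the same omissions the median ranged from 0.25 to 0.45 in AEG1 versus WT, from 0.09 to 0.27 in MYC versus WT, from 0.07 to 0.32 in AEG1_MYC versus WT, from -0.36 to -0.11 in AEG1_MYC versus AEG1, from -0.15 to 0.11 in AEG1_MYC versus MYC, from 0.11 to 0.20 in AEG1 versus MYC and from -0.49 to -0.35 in the interaction. The count of members without overlap, 21 over the 6 pairs of genotypes, ranged from 21 to 33, the highest without WT replicate 1; leaving out a library can only keep or add separations, so this range says nothing of stability. Single fold changes were followed for all members in AEG1 versus WT. Elsewhere they were followed at an unadjusted edgeR p under 0.05, without overlap, or for Stab2 in AEG1_MYC versus WT. Under other scalings, filters, tools and fits, 278 of 284 kept direction and side of the threshold. When 1 library was left out, 380 of 384 did. No member was called in the main fit, so a call could only be gained, and size was not judged. Pecam1 in AEG1_MYC versus WT counted as kept although it went from 0.55 to 0.01 with AEG1_MYC replicates 1 and 2 both left out. A fit of the compared libraries alone could not give the interaction or the joint test. No paired analysis was possible because replicate numbers 1 to 3 were given here in accession order and name no shared litter or batch.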
